A study of Mus musculus with 16 samples.

Results

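Voltage-gated ion channels are membrane proteins that open and close with the voltage across a cell's membrane, and 51 of their genes were read here from arrays of neonatal mouse cerebellum and lung. Members were taken by symbol: the potassium channel families Kcna, Kcnb, Kcnc, Kcnd, Kcnh and Kcnq, the sodium channel alpha and beta subunits (Scn), the calcium channel alpha1, alpha2delta and beta subunits (Cacna, Cacna2d, Cacnb) and the pacemaker channels (Hcn). The rule found 51 of the 18193 genes that the arrays name: 22 potassium, 11 sodium, 16 calcium and 2 Hcn genes. No Kcnb gene was among them, and these are not analysed here. Each gene was read from the probe set, a group of short probes for a transcript, with the highest mean over the 16 arrays. The 51 members had 122 probe sets, 33 members had more than 1 and 18 had 1.

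The mice were C57BL/6J, their organs were taken at postnatal day 7 (P7), and the tissue was whole cerebellum or whole lung. They had received dexamethasone, a synthetic glucocorticoid, or vehicle, which gives 4 groups of 4 arrays. The 4 groups are dexamethasone cerebellum (arrays B39, B49, B50 and B52), vehicle cerebellum (B78, B79, B80 and B81), dexamethasone lung (B28, B31, B40 and B46) and vehicle lung (B12, B14, B19 and B22). The labels give no genetic change in any group, and the sources used here name no dose, schedule, sex or litter. The labels call the arrays of a group biological replicates. The p-values rest on the spread between replicates, estimated for each gene over all 4 groups together. Arrays outside a comparison thus enter its p-values.

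The pore of a voltage-gated sodium or calcium channel is a single large alpha subunit, while potassium and Hcn channels are assembled from several alpha subunits. Sodium channels carry the upstroke of the action potential, potassium channels end it and set how soon the next can follow, and calcium channels turn the voltage change into secretion, contraction or gene transcription. Beta and alpha2delta subunits bring the alpha subunits to the membrane and set how they open and close. Neurons use most of the set, and smooth muscle, heart muscle, secretory cells and some epithelia use parts of it.

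All values are log2 signals, so a difference of 1 is a factor of 2, and they were deposited after RMA, which gives every probe set a value whether or not its transcript is detected. Levels are not compared between genes. Marker genes matched the labelled tissues: 10 pan-neuronal markers, summed on the linear scale and written as log2, were 15.1 to 15.4 in vehicle cerebellum and 9.54 to 9.8 in vehicle lung, and 4 alveolar markers were 7.7 to 8.18 and 15.5 to 15.6. Within a tissue, arrays correlated at 0.950 or more. When limma estimated how well each array follows its group, the dexamethasone lung array B46 had the lowest weight of the 16 (0.264). In cerebellum B39 and B79 had the lowest, at 0.451 and 0.590. The log2 signal of the Gapdh control at the 3′ end minus that at the 5′ end, which grows as RNA is degraded, was 0.446 to 0.708 in dexamethasone lungs and 0.84 to 1.04 in vehicle lungs. The same difference for the actin control was 0.451 to 0.642 and 0.611 to 0.667. In lung the Gapdh ranges do not overlap and the actin ranges do. In cerebellum Gapdh was 0.049 to 0.178 after dexamethasone and 0.044 to 0.518 after vehicle, and actin 0.535 to 0.577 and 0.524 to 0.942. Vehicle lung and vehicle cerebellum do not overlap for Gapdh and do for actin. No fit adjusted for either control, and their part in the results of any comparison was not tested.

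Dexamethasone acts through the glucocorticoid receptor, whose DNA-binding half-site reads AGAACA on one strand and TGTTCT on the other. The 250 bases before each annotated start were searched for these letters on both strands in RefSeq's promoter windows (build GRCm38.p6). The half-site was present in 16.1% of all 32851 windows, in 10 of the 52 windows of members (19.2%) and in 3 of the 20 windows of the members called in a dexamethasone comparison. Of the 51 members 39 had a window, and of the 14 called ones 13 did. The 3 windows that held it belong to Cacna1c, Cacna1d and Cacnb2, subunits of the L-type calcium channel that were lower in dexamethasone lungs, and they are printed for that reason, with the half-site in capitals. In the window of Cacna1c, 1 of 3 of that gene, the half-site stands on each strand side by side. Cacna1d and Cacnb2 have 2 windows each, and the other windows of these 3 genes hold no half-site. The windows of Kcna2, which was higher in dexamethasone lungs, and of Cacna2d3, which moved in opposite directions in the 2 organs, hold no half-site and are shown beside them. A match of 6 letters is a description of the sequence and says nothing about binding.
Cacna1c, chr6:118757975-118758224, minus strand: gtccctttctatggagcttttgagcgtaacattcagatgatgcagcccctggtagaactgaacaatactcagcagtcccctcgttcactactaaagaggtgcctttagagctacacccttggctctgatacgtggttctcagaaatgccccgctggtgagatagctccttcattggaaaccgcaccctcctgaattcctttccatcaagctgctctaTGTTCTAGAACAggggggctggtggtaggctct
Cacna1d, chr14:30491157-30491406, minus strand: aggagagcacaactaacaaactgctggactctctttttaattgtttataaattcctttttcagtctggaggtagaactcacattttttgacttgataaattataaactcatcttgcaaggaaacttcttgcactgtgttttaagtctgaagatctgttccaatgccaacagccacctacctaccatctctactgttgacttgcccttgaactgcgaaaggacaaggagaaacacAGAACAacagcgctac
Cacnb2, chr2:14823842-14824091, plus strand: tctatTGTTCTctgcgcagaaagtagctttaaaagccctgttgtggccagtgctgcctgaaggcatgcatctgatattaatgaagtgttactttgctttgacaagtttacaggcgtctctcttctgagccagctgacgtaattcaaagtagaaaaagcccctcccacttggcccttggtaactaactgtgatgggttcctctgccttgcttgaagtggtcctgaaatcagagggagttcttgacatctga
Kcna2, chr3:107101317-107101566, plus strand: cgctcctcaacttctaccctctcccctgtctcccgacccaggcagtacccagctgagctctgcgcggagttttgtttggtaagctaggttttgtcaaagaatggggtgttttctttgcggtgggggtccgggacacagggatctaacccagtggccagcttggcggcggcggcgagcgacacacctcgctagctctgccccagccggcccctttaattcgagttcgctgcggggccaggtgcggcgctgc
Cacna2d3, chr14:29721865-29722114, minus strand: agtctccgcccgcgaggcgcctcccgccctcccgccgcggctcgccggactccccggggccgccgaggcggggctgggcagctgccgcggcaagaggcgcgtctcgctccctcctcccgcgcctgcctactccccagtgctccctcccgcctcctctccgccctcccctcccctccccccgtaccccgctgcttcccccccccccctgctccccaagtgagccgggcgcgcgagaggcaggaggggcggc
The windows of Kcna2 and Cacna2d3 had a GC content of 62.4% and 80%, and the 3 windows with a half-site had 39.6% to 50.4%. Median GC content was 61.4% over the windows of members and 52.4% over all windows.

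The first comparison asks where the channels are used without treatment, and sets vehicle lung against vehicle cerebellum. Of the 51 members 32 were higher in cerebellum and 7 higher in lung at an adjusted p under 0.05, the threshold for every call here. Over all 18193 genes 29.7% were higher in cerebellum and 28% higher in lung. The median difference of the members, lung minus cerebellum, was -0.92, against 0.002 for all genes. In vehicle cerebellum 33 members lay above log2 6 in all 4 arrays, and in vehicle lung 13 did.

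**Figure D1:**
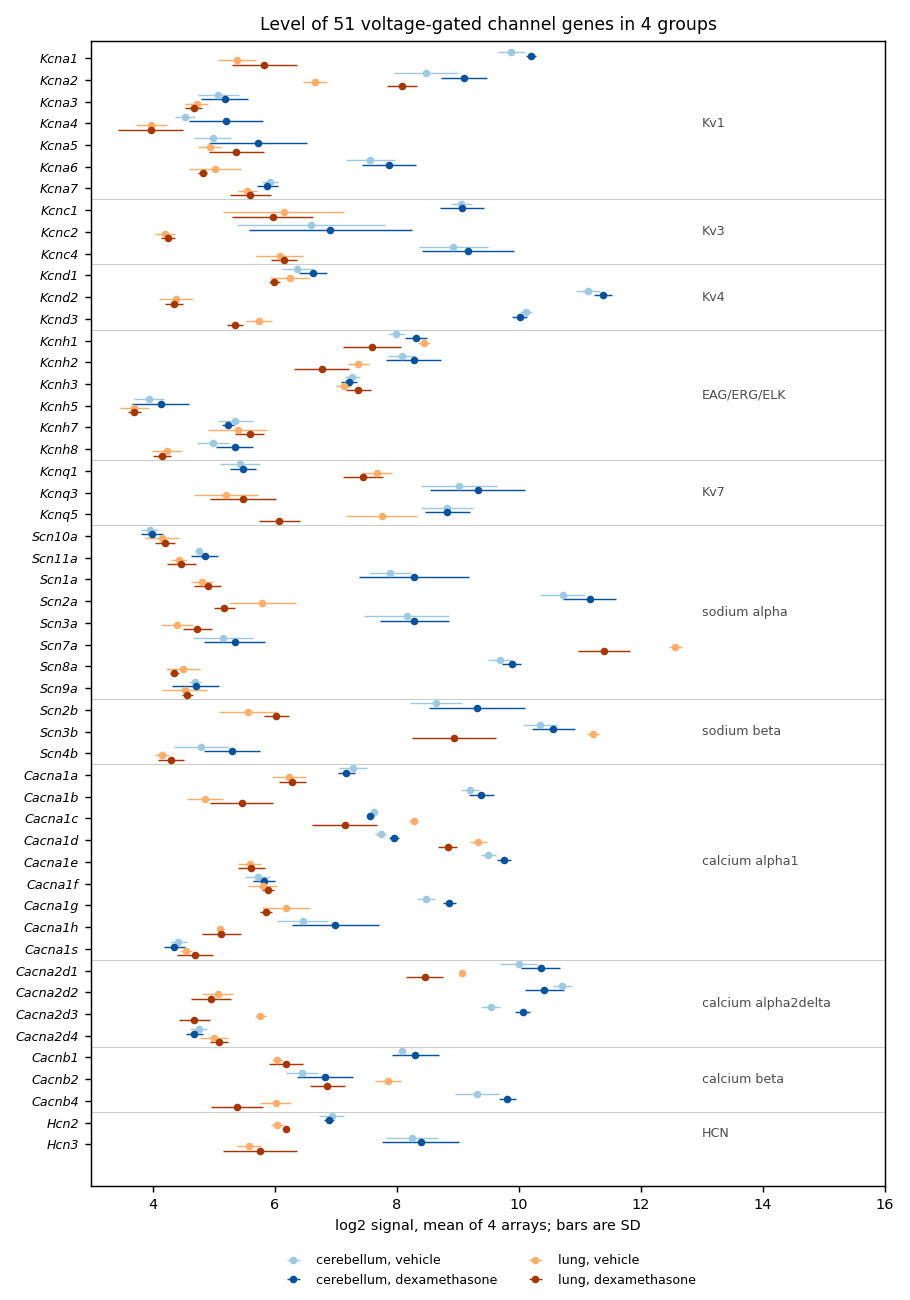
Level of each of the 51 members as log2 signal (x axis) in the 4 groups, with points for the mean of 4 arrays and bars for the SD; genes are grouped by family. Most blue points (cerebellum) lie to the right of the orange ones (lung), with Scn7a at 12.56 in vehicle lung and 5.15 in vehicle cerebellum as the widest gap the other way.

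Among potassium channels, the A-type channel gene Kcnd2, whose fast-inactivating current delays firing, was 11.29, 10.84, 11.15 and 11.24 in the 4 vehicle cerebella and 4.37, 4.07, 4.75 and 4.34 in the vehicle lungs. The lowest cerebellar array lay more than 6 log2 units above the highest lung array, and the difference was -6.75 ± 0.14 (standard error, limma adjusted p = 2.71e-16). Its relative Kcnd3 was 20.8-fold higher in cerebellum. In the Kv1 family, which sets the threshold of axons, Kcna1 differed most (-4.49 ± 0.21, 22.5-fold), and Kcna2 and Kcna6 were 3.54-fold and 5.82-fold higher in cerebellum. All 3 measured Kv3 genes, whose channels close fast enough for high firing rates, were higher in cerebellum: Kcnc1 by 7.5-fold, Kcnc4 by 7.19-fold and Kcnc2 by 5.25-fold. The Kv7 family split. Kcnq3, a subunit of the M-current that damps repetitive firing, was 14-fold higher in cerebellum, Kcnq5 was 2.1-fold higher there, and Kcnq1, the Kv7 channel of heart and epithelia, was 4.76-fold higher in lung (2.25 ± 0.18). Of the 6 Kcnh genes, Kcnh2 and Kcnh8 were higher in cerebellum (-0.71 ± 0.22 and -0.76 ± 0.16) and Kcnh1 higher in lung (0.46 ± 0.18). The call for Kcnh1 was lost with the mean of its 2 probe sets (adjusted p = 0.151) and without B78, B81, B14, B19 or B22.

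Sodium channel alpha subunits gave the widest difference of any member, and it ran toward lung. Scn7a encodes Nax, a channel related to the voltage-gated ones that responds to extracellular sodium. It was 12.71, 12.55, 12.47 and 12.52 in vehicle lungs and 5.32, 4.43, 5.51 and 5.34 in vehicle cerebella, a difference of 7.41 ± 0.26 (limma adjusted p = 1.34e-13). The other 5 alpha subunits called were higher in cerebellum, led by Scn8a (-5.19 ± 0.13, 36.6-fold) and Scn2a (-4.92 ± 0.25, 30.2-fold), the main alpha subunits of axon initial segments. Scn3a and Scn1a followed at 13.6-fold and 8.47-fold, and Scn11a differed by -0.33, with group means of 4.76 and 4.43. Scn9a and Scn10a, sodium channels of sensory neurons, were at or below log2 6 in every array and were not called. Scn9a was called higher in cerebellum with the mean of its 5 probe sets (-0.28, adjusted p = 0.0383). So was a probe set of Scn9a other than the one used (-0.91, adjusted p = 0.00263). Among beta subunits, Scn2b was 8.46-fold higher in cerebellum and Scn3b 1.83-fold higher in lung.

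Calcium channel alpha1 subunits divided by type. The N-type Cacna1b, R-type Cacna1e and T-type Cacna1g, types that serve transmitter release and burst firing in neurons, were 20.3-fold, 15-fold and 4.9-fold higher in cerebellum, and the P/Q-type Cacna1a 2.06-fold. The L-type Cacna1c and Cacna1d, which drive contraction and secretion, were 1.56-fold and 3.02-fold higher in lung. Both other L-type genes, Cacna1f of retina and Cacna1s of skeletal muscle, differed by 0.08 ± 0.13 and 0.12 ± 0.13 and were not called. The auxiliary subunits Cacna2d2 and Cacna2d3 were 50-fold and 13.7-fold higher in cerebellum, Cacnb4 was 9.88-fold higher there, and Cacnb2, the main beta subunit of heart, was 2.66-fold higher in lung. Cacna2d1 was 1.9-fold higher in cerebellum, but its call was lost with the mean of its 5 probe sets (-0.15, adjusted p = 0.413). Another of its probe sets was called higher in lung (1.165, adjusted p = 0.00451), and yet another higher in cerebellum (-0.63, adjusted p = 0.00326). The direction for Cacna2d1 thus depends on the probe set. Both Hcn genes were higher in cerebellum, with differences, lung minus cerebellum, of -2.67 ± 0.31 for Hcn3 and -0.89 ± 0.10 for Hcn2.

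The other members called in this comparison were also higher in cerebellum: Kcna7 (-0.37 ± 0.15), Scn4b (-0.65 ± 0.22), Cacna1h (-1.35 ± 0.28) and Cacnb1 (-2.05 ± 0.16). The calls for Kcna7, Scn4b and Scn11a were each lost without B81 and without 1 or more other vehicle arrays, with adjusted p-values of 0.0504 to 0.0972. The 12 members not called were Kcna3, Kcna4, Kcna5, Kcnd1, Kcnh3, Kcnh5, Kcnh7, Scn9a, Scn10a, Cacna1f, Cacna1s and Cacna2d4, with differences of -0.55 to 0.25. Kcna3 was called without B79 (-0.51, adjusted p = 0.022). Kcna4 was called without B39 (-0.55, adjusted p = 0.0457) or B28 (-0.55, adjusted p = 0.0492). Both are dexamethasone arrays, which enter this comparison only through the spread shared over all groups, so the difference stayed the same. Kcna4 was also called with the vehicle arrays alone (-0.55, adjusted p = 0.00412) and with the mean of its probe sets (-0.48, adjusted p = 0.0107). When probe sets of a gene were averaged in place of choosing 1, 17 of the 39 differences called were smaller by over 1.5 times, among them those of Cacna2d2 (-1.80), Kcnd3 (-1.51), Kcnd2 (-4.23) and Scn8a (-2.54), and 0 of 39 changed direction. Over the 16 arrays 37 of the 51 members reached log2 6 in at least 4 arrays, and the other 14 did not.

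The next comparison asks what dexamethasone did in lung. There 12 of the 51 members fell and 2 rose, beside 15.5% of all genes that fell and 15.7% that rose. The members that fell were Scn3b and Scn7a, 2 of 11 sodium channel genes; Cacna1c, Cacna1d, Cacna2d1, Cacna2d3, Cacnb2 and Cacnb4, 6 of 16 calcium channel genes; and Kcnq5, Kcnh1, Kcnh2 and Kcnd3, 4 of 22 potassium channel genes. Kcna2 and Cacna1b rose. The median change of all members was 0.01, beside 0.05 for all genes. The groups of 4 arrays did not overlap for 12 members, of which 10 were lower and 2, Kcna2 and Hcn2, higher after dexamethasone, and 30.6% of all genes did not overlap in lung. The 37 members not called had differences of -0.62 (Scn2a) to 0.47 (Scn2b). For 2 of them a probe set other than the one used was called higher. Kcnd2 was -0.03 on its probe set used, and 2 of its other 3 gave 0.53 (adjusted p = 0.0436) and 0.44 (adjusted p = 0.0268). Cacna2d4 was 0.08, 1 of its other 2 gave 0.41 (adjusted p = 0.00557), and the mean of its probe sets was called (0.21, adjusted p = 0.0413). Leaving out 1 array brought a call for Scn2a without B19 (-0.80, adjusted p = 0.0271), Cacna1g without B12 (-0.48, adjusted p = 0.00969), Kcnh3 without B28 (0.31, adjusted p = 0.0473) and Kcna1 without B31 (0.67, adjusted p = 0.0091). In whole organs, fewer cells of a type and less RNA per cell cannot be told apart.

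**Figure D2:**
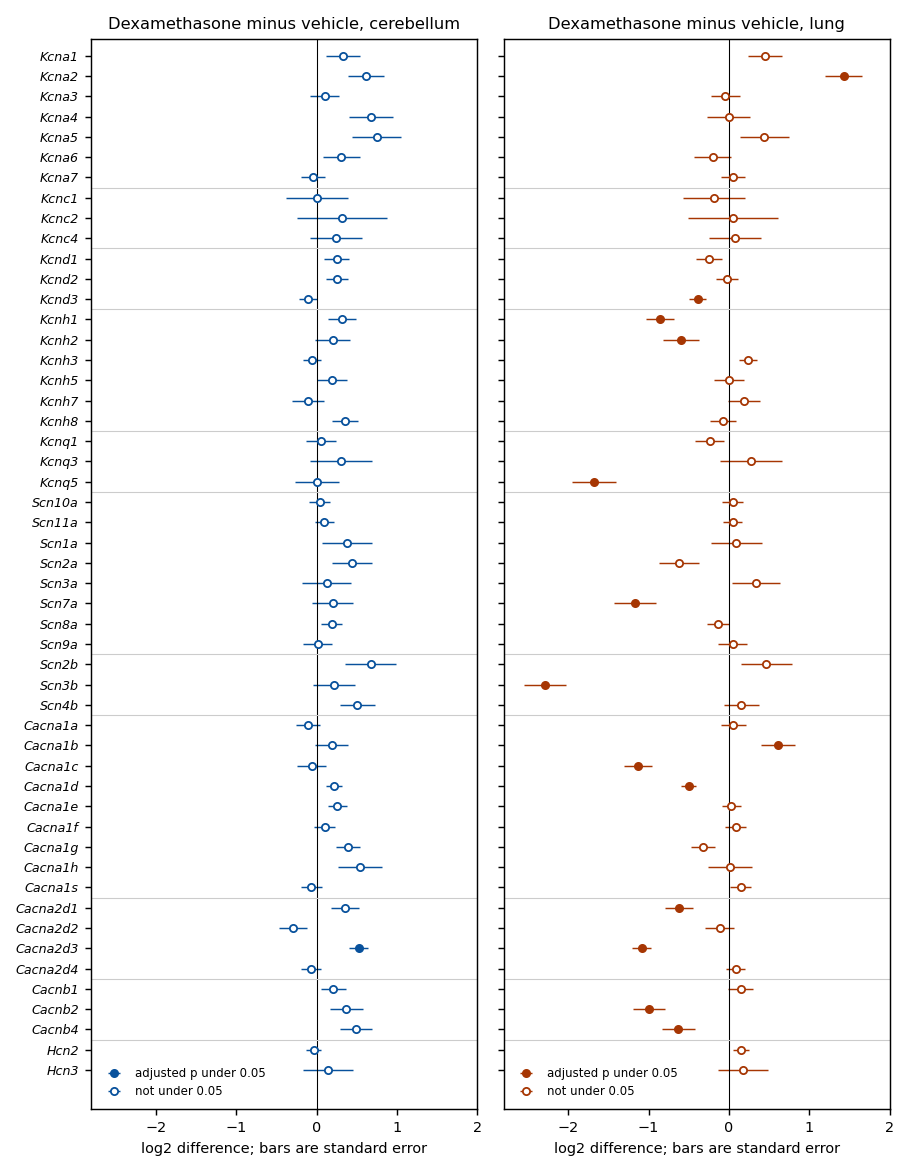
Log2 difference, dexamethasone minus vehicle (x axis), of each member in cerebellum (left) and lung (right), with bars for the standard error and filled points for an adjusted p under 0.05. In lung the filled points run from -2.29 (Scn3b) to 1.43 (Kcna2), and in cerebellum 1 point, Cacna2d3 at 0.52, is filled.

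Scn3b, a beta subunit that sets the gating and surface level of sodium channels, had the largest change. It was 9.28, 9.28, 9.29 and 7.90 in the dexamethasone lungs B28, B31, B40 and B46, and 11.14, 11.35, 11.14 and 11.25 in the vehicle lungs B12, B14, B19 and B22, an order kept in the sentences that follow. All 4 dexamethasone arrays lay below all vehicle arrays, and B46 lay 1.37 below the next. The fall was 4.88-fold (-2.29 ± 0.26, limma adjusted p = 5.06e-06), and -1.81 at its smallest under the alternatives. Both probe sets of Scn3b were called, the other with a change of -1.34.

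Scn7a, the sodium-sensing channel that stood so far above cerebellum in lung, was 11.75, 11.65, 11.38 and 10.81 after dexamethasone and 12.71, 12.55, 12.47 and 12.52 after vehicle. The groups did not overlap, and the fall was 2.25-fold (-1.17 ± 0.26, adjusted p = 0.00232). All 3 of its probe sets fell, the others with changes of -1.33 and -1.99. Even the lowest dexamethasone lung stayed more than 4 log2 units above every cerebellum. Apart from Scn2a, the 6 other alpha subunits had differences between -0.14 and 0.34 in lung and were not called. Scn2a was 5.12, 5.17, 5.42 and 5.01 after dexamethasone and 6.06, 6.44, 5.26 and 5.45 after vehicle, a difference of -0.62 ± 0.25 that was not called (adjusted p = 0.0741).

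Among L-type calcium channel subunits, Cacna1c was 7.17, 7.59, 7.43 and 6.39 after dexamethasone and 8.25, 8.30, 8.20 and 8.36 after vehicle. The groups were apart, with B46 the lowest array, and the fall was 2.19-fold (-1.13 ± 0.18, adjusted p = 0.000123). Its other probe set fell by 1.14 on the log2 scale. Cacna1d, the L-type channel that opens at less depolarised voltages, was 8.87, 8.81, 9.02 and 8.64 after dexamethasone and 9.34, 9.40, 9.14 and 9.47 after vehicle, again without overlap (-0.50 ± 0.10, adjusted p = 0.000769). Its second probe set, which had a mean of 5.34 and 5.51 in the lung groups, was not called. Cacnb2, the beta subunit that carries Cacna1c to the membrane in heart, was 7.14, 7.05, 6.76 and 6.51 after dexamethasone and 7.87, 7.56, 7.95 and 8.06 after vehicle. All dexamethasone arrays were below all vehicle arrays, and the fall was 1.99-fold (-0.99 ± 0.20, adjusted p = 0.0012), with 1 of 2 probe sets called.

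The remaining calcium channel subunits called in lung were auxiliary subunits and 1 neuronal alpha1 gene. Cacna2d3 was 4.54, 4.92, 4.40 and 4.86 after dexamethasone and 5.75, 5.70, 5.72 and 5.89 after vehicle. The groups did not overlap (-1.08 ± 0.12, adjusted p = 3.46e-06), although all 8 lung arrays were below log2 6, where RMA compresses differences. Cacna2d1, the target of gabapentin, was 8.50, 8.59, 8.71 and 8.03 after dexamethasone and 9.12, 9.03, 9.11 and 9.05 after vehicle. Its groups were apart too (-0.62 ± 0.17, adjusted p = 0.0118), and 3 of its 5 probe sets were called lower. Cacnb4 was 5.85, 5.63, 5.12 and 4.93 after dexamethasone and 6.18, 6.01, 5.66 and 6.21 after vehicle, and here array B28 lay above the vehicle array B19. Its call (-0.63 ± 0.20, adjusted p = 0.0249) was lost without B40, B46, B12 or B22 (adjusted p 0.069 to 0.0866). Cacna1b, the N-type channel, was 5.73, 5.97, 4.78 and 5.38 after dexamethasone and 4.65, 4.56, 5.18 and 5.02 after vehicle, with B40 inside the vehicle range. That call (0.61 ± 0.21, adjusted p = 0.0331) rests on 1 of 4 probe sets at levels below log2 6, and it was lost under 7 of 27 alternatives, among them the mean of its probe sets (0.30, adjusted p = 0.0763) and leaving out B28, B31, B12 or B14.

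Among potassium channels, Kcna2, an axonal channel of the Kv1 family, moved furthest up. It was 8.34, 7.88, 8.23 and 7.89 after dexamethasone and 6.73, 6.66, 6.39 and 6.86 after vehicle. Every dexamethasone array lay at least 1.02 above every vehicle array, and the rise was 2.69-fold (1.43 ± 0.23, adjusted p = 0.000146). Of its 4 probe sets 2 were called, the second with a change of 1.28, and the mean of all 4 gave 0.76 (adjusted p = 9.63e-05). No other Kv1 gene was called in lung. The nearest, Kcna1 and Kcna5, had differences of 0.45 ± 0.21 and 0.44 ± 0.31, and Kcna1 was called when B31 was left out, as given above.

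Kcnq5, a subunit of the M-current also found in smooth muscle, was 6.02, 6.49, 6.13 and 5.67 after dexamethasone and 8.13, 8.18, 6.93 and 7.77 after vehicle. The groups were apart, with the vehicle array B19 the closest, and the fall was 3.2-fold (-1.68 ± 0.27, adjusted p = 0.00018). Of its 3 probe sets 2 fell, and the mean of all 3 gave -0.87 (adjusted p = 4.61e-05). Kcnh1, a slowly activating potassium channel, was 6.91, 8.02, 7.65 and 7.79 after dexamethasone and 8.31, 8.46, 8.51 and 8.53 after vehicle, without overlap and with B28 lowest (-0.86 ± 0.18, adjusted p = 0.00127). Both of its probe sets fell. Kcnh2, the ERG channel that repolarises heart muscle, was 7.16, 6.95, 6.87 and 6.13 after dexamethasone and 7.21, 7.31, 7.36 and 7.61 after vehicle. Its groups were apart by 0.05, its adjusted p was 0.049, and the call was lost under 17 of 27 alternatives (adjusted p 0.0256 to 0.167 over all of them), with -0.60 becoming -0.38 without B46. Kcnd3 was 5.41, 5.45, 5.15 and 5.39 after dexamethasone and 5.90, 5.42, 5.79 and 5.85 after vehicle, overlapping at the vehicle array B14 (-0.39 ± 0.11, adjusted p = 0.0125). Another of its 4 probe sets was called higher (0.68), and with the mean of its probe sets the change turned to 0.11 (adjusted p = 0.321), so the direction for Kcnd3 depends on the probe set.

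**Figure D3:**
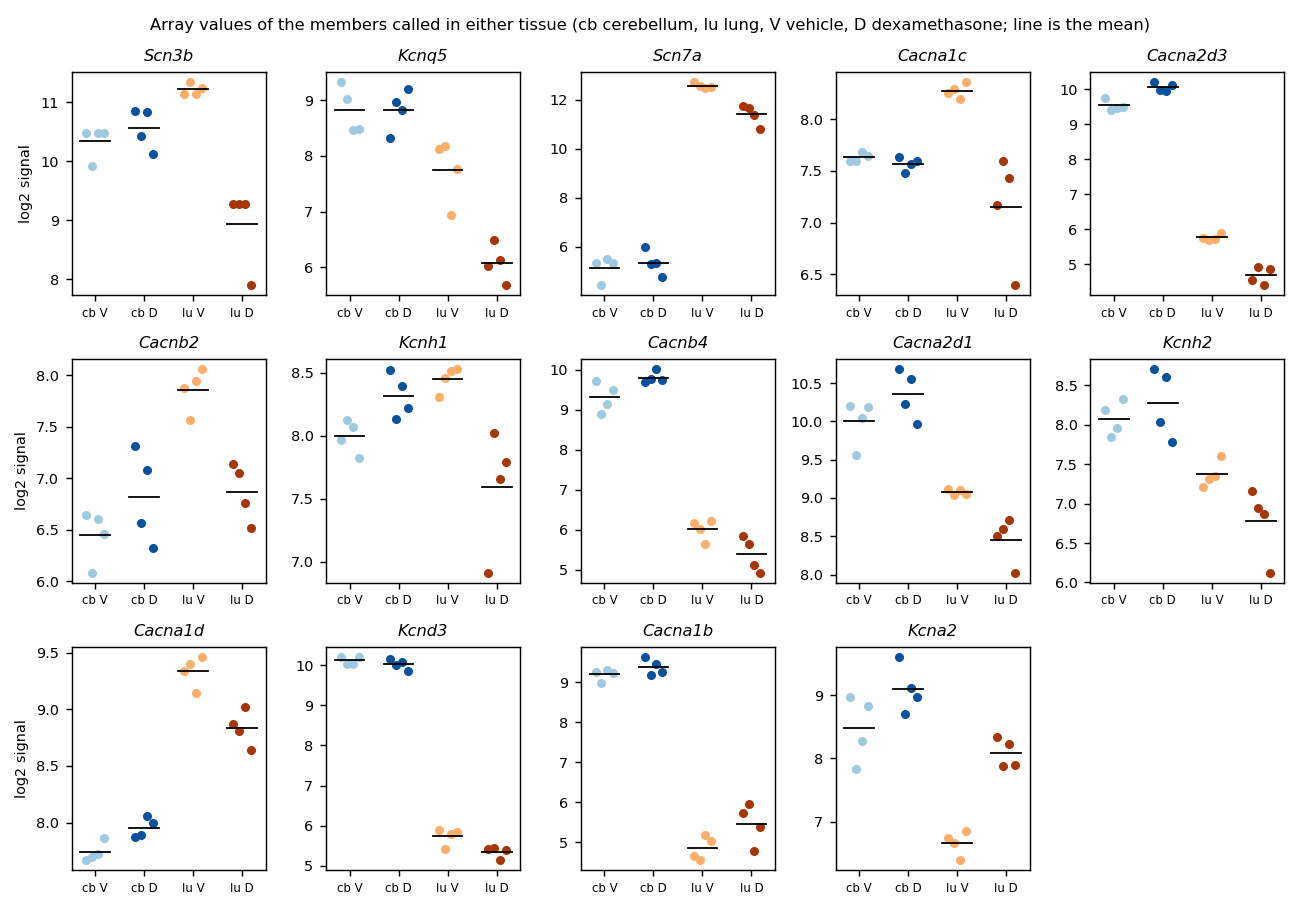
Log2 signal (y axis, a scale of its own for each gene) in each array of the 14 members called in either dexamethasone comparison, with a line at the mean of each group of 4. The dexamethasone lungs lie wholly below the vehicle lungs for 10 genes and wholly above them for Kcna2, and in cerebellum the groups are apart for Cacna2d3, Kcnh1 and Cacna1d.

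Genes of the cell marker lists, lists of brain cells included, moved in the same comparison. Of 5 smooth muscle markers 4 fell, and their summed level was 12.7 to 13.5 after dexamethasone and 14 to 14.4 after vehicle, without overlap; Myh11, the smooth muscle myosin, changed by -1.51 ± 0.28. Of 10 cardiac muscle markers 7 rose and 0 fell, and their summed level was 12.5 to 13.4 and 11.7 to 12. Of 4 endothelial markers 3 fell, with 11.9 to 12.1 against 12.4 to 12.8. All 3 neutrophil markers rose, with 14.7 to 15.1 against 13.2 to 13.7. Of 10 pan-neuronal markers 1 rose (Rbfox3) and 1 fell (Stmn2), and the summed level overlapped, at 9.32 to 9.98 and 9.54 to 9.8. Of 4 alveolar epithelium markers 2 rose, Sftpb (0.68 ± 0.19) and Nkx2-1 (0.54 ± 0.17), with 15.7 to 15.8 against 15.5 to 15.6, without overlap. Of 4 markers listed for skeletal muscle 2 rose, Ckm and the cardiac actin gene Actc1, with 10.5 to 11.7 against 10.1 to 10.5. Acta1 (0.20 ± 0.10) and Myh3 (-0.17 ± 0.16) were not called. Of 4 genes listed as astrocyte markers in brain 2 rose, Aqp4 (1.06 ± 0.13) and Aldoc (0.64 ± 0.15), with 9.46 to 9.63 against 9.08 to 9.19. Gfap (0.16 ± 0.27) and Slc1a3 (-0.13 ± 0.12) of that list were not called. Of 4 macrophage and microglia markers Cd68 rose (1.42 ± 0.31) and Aif1 fell (-0.76 ± 0.12), with 11.7 to 12.8 against 11.6 to 11.8. Of 4 genes listed as oligodendrocyte markers 1 fell, Cnp. In lung the brain lists are read as single genes and not as signs of these cells. Both measured markers of Schwann cells, Sox10 and Pmp22, were not called, and their summed level was 12.4 to 12.7 and 12.2 to 12.4. None of the markers of the other 5 lists (granule neuron progenitors, mature granule neurons, inhibitory interneurons, Purkinje cells, and pulmonary neuroendocrine cells with peripheral neurons) was called in lung. The part of these shifts in the falls of Cacna1c, Cacnb2, Kcnq5, Scn7a and the other members was not tested.

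The next comparison asks the same of cerebellum. There 1 member rose and 0 fell with limma, beside 2.84% of all genes that rose and 1.97% that fell. At an unadjusted p under 0.05, 10 members (19.6%) were higher and 0 lower, and 17.0% of all genes reached that p in either direction. Cacna2d3, an auxiliary subunit that raises the surface level of presynaptic calcium channels, was 10.21, 9.97, 9.95 and 10.12 in the dexamethasone cerebella B39, B49, B50 and B52, and 9.76, 9.42, 9.47 and 9.50 in the vehicle cerebella B78, B79, B80 and B81. The groups did not overlap, and the rise was 1.44-fold (0.52 ± 0.12, limma adjusted p = 0.0162). Without B79 the change was 0.48 with an adjusted p of 0.0582, and without B39 and B79 it was 0.43 with an adjusted p of 0.110. The call was also near the threshold without B80 (adjusted p = 0.0498), B52 (0.0467) or B39 (0.0434). The gene has 1 probe set on the array.

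The groups did not overlap for 6 members in cerebellum, all of them higher after dexamethasone, beside 12.6% of all genes that did not overlap in either direction. They are Cacna2d3, the calcium channels Cacna1d, Cacna1e and Cacna1g and the potassium channels Kcna1 and Kcnh1. Cacna1g, the T-type channel of burst firing, was 8.78, 8.84, 8.82 and 9.02 after dexamethasone and 8.42, 8.39, 8.40 and 8.71 after vehicle (0.39 ± 0.15, adjusted p = 0.174). Vehicle array B81 stood 0.29 above the other 3 of its group. The differences of Cacna1e, Cacna1d, Kcna1 and Kcnh1 were 0.26 ± 0.12, 0.21 ± 0.10, 0.33 ± 0.21 and 0.32 ± 0.18, with adjusted p-values of 0.264 to 0.505. Scn2b, a beta subunit tied to the axon membrane, had 0.67 ± 0.32 on the probe set used, which was not called, while another of its 3 probe sets was called higher (0.82, adjusted p = 0.0440). Kcna5 had the largest difference, 0.75 ± 0.31 (adjusted p = 0.212), and it was called without B52 (1.07, adjusted p = 0.0353).

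Differences above 0 were found for 41 of the 51 members in cerebellum, with a median of 0.21, beside a median of 0.007 and 51.6% above 0 over all genes. All 11 sodium channel genes had values above 0, from 0.01 (Scn9a) to 0.67 (Scn2b). These values moved in both directions as arrays were left out. Without B39 the median of the members was 0.07 with 33 above 0, and without B79 it was 0.12 with 35 above 0. Without both, a pair chosen after seeing the data, it was 0.05 with 28 of 51 above 0, beside 0.02 and 54% over all genes. B39 was most often the highest dexamethasone array and B79 the lowest vehicle array, so leaving them out lowers most differences by construction. The median was 0.173 without B50. It was higher without B52 (0.335), B49 (0.281), B81 (0.257), B78 (0.256) or B80 (0.242), with 39 or 40 above 0.

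Within the cerebellar groups a larger share of members than of all genes had a wide spread. The pooled SD within the groups was above 0.5 for 9 members (17.6%) in cerebellum, beside 2.25% of all genes, and its median was 0.278 for members and 0.164 for all genes. The 9 are the Kv3 genes Kcnc2 and Kcnc4, Kcnq3, Kcna5, the sodium channel genes Scn1a, Scn3a and Scn2b, the T-type Cacna1h and Hcn3. Kcnc2, whose channel serves fast-spiking neurons, was 8.16, 6.44, 7.81 and 5.24 after dexamethasone and 7.40, 4.79, 6.99 and 7.20 after vehicle. Arrays B52 and B79 were the lowest of their groups, each more than 1 below the next. Scn1a, a main sodium channel of inhibitory interneurons, was 9.51, 7.66, 8.39 and 7.55 after dexamethasone and 8.07, 7.39, 8.02 and 8.11 after vehicle, with B39 more than 1 above the next array and B79 lowest. Kcnq3 was 10.16, 9.03, 9.72 and 8.38 after dexamethasone and 9.53, 8.11, 9.27 and 9.17 after vehicle, with B39 the highest and B79 the lowest of the 8 cerebellar arrays.

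**Figure D4:**
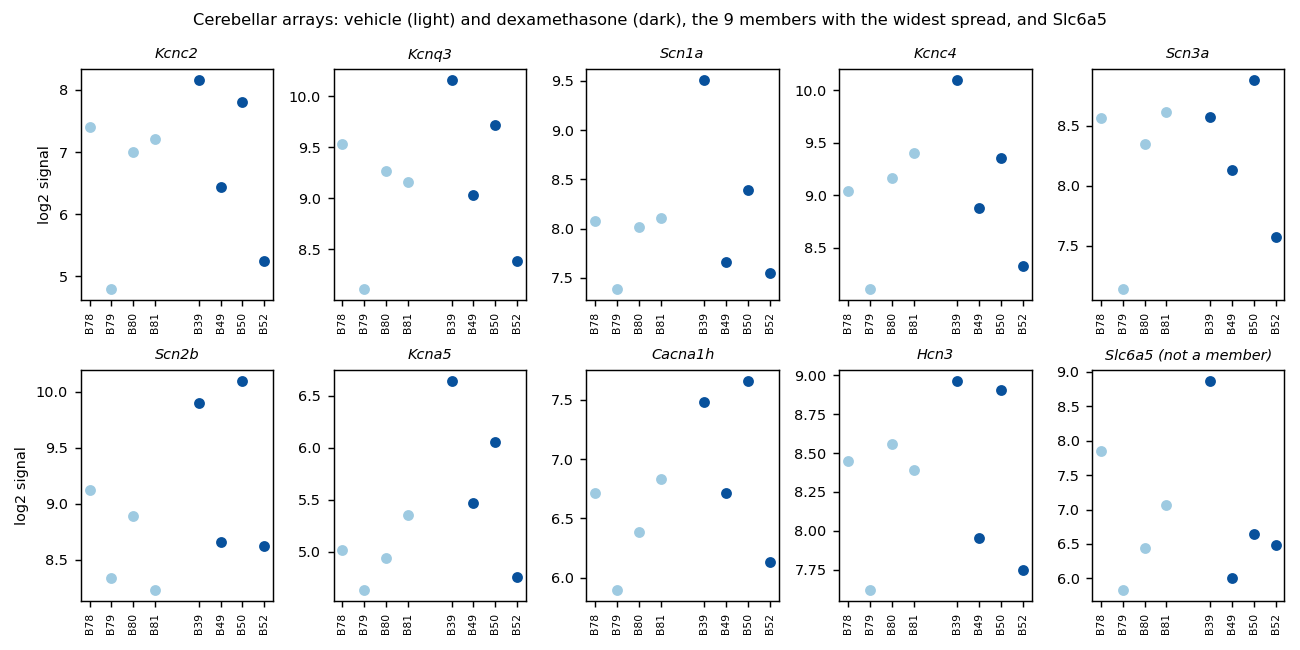
Log2 signal (y axis, a scale of its own for each gene) in each cerebellar array (x axis) for the 9 members with the widest spread within groups and for Slc6a5, which is no member. B79 is the lowest vehicle array for 8 of the 9 members, with Scn2b as the exception, and B52 is the lowest dexamethasone array for all 9.

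The same arrays stood at the ends across the set. Among the dexamethasone cerebella, B39 was the highest array for 34 of 51 members (32.9% of all genes) and B52 the lowest for 30 (24.0% of all genes). Among the vehicle cerebella, B79 was the lowest for 32 members (25.1% of all genes). In lung, no array was the highest for more than 16 or the lowest for more than 23 of the 51 members. Slc6a5 is the glycine transporter of glycinergic neurons, which are most abundant in brainstem and deep cerebellar nuclei. Among the dexamethasone cerebella Slc6a5 was 8.87 in B39, 6.01 in B49, 6.65 in B50 and 6.49 in B52, so B49 and not B52 was lowest. In the vehicle cerebella it was 7.85 in B78, 5.83 in B79, 6.44 in B80 and 7.06 in B81. With its level as a covariate the median change of the members in cerebellum was 0.16, with 39 of 51 above 0. Of the 5 inhibitory interneuron markers that include Slc6a5 1 was called, Pvalb, which rose by 1.04 ± 0.21. Pvalb was 10.19 in B39, 10.71 in B49, 10.09 in B50 and 11.39 in B52, so B52 was its highest dexamethasone array. The summed level of the 5 markers was 12.6 to 12.9 after dexamethasone and 12.2 to 12.7 after vehicle. Of 5 mature granule neuron markers 2 rose, Gabra6 and Cbln3, with a summed level of 12.8 to 13.3 after dexamethasone and 12.7 to 12.9 after vehicle. Of 4 oligodendrocyte markers 3 rose, with 14.7 to 15 against 13.9 to 14.7. Of 4 endothelial markers 2 fell, Tek (-1.25 ± 0.11) and Cdh5 (-1.11 ± 0.12), with 8.63 to 8.84 against 9.23 to 9.49, without overlap. Of 3 neutrophil markers 2 fell, S100a8 (-1.72 ± 0.44) and S100a9 (-1.59 ± 0.41), with 6.76 to 8.93 against 8.09 to 9.58. Of 4 macrophage and microglia markers 1 fell, Cd68 (-1.27 ± 0.31), with 10.7 to 11.3 against 11.2 to 11.3, and of 4 astrocyte markers 1 rose, Aldoc (0.70 ± 0.15), with 14.1 to 14.3 against 14 to 14.2. No marker of the other 9 lists was called in cerebellum, the pan-neuronal and Purkinje lists among them. The part of these shifts in the values of the members was not tested.

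The difference between the organs' responses was tested directly, as the lung change minus the cerebellar change, which uses all 16 arrays and so shares them with both comparisons above. By limma it was called below 0 for 12 members and called above 0 for 0, beside 11.5% and 9.85% of all genes. By sign alone, called or not, 36 members were below 0 and 15 above. At an unadjusted p under 0.05, 14 members were below 0 and 1 above, Kcna2, which is 29.4% of members and no more than the 32.5% of all genes that reached that p in either direction. The widest differences were those of Scn3b (-2.50 ± 0.37, limma adjusted p = 0.000156), Kcnq5 (-1.68 ± 0.39) and Cacna2d3 (-1.61 ± 0.17, adjusted p = 8.11e-06). Cacna2d3 rose in cerebellum and fell in lung, each as a call of its own. Of the 12, 7 are calcium channel genes: Cacna1c, Cacna1d, Cacna1g, Cacna2d1, Cacna2d3, Cacnb2 and Cacnb4. Cacnb2 was 7.32, 6.57, 7.08 and 6.33 in dexamethasone and 6.65, 6.09, 6.61 and 6.46 in vehicle cerebella, overlapping groups with a difference of 0.37 ± 0.20, against -0.99 ± 0.20 in lung.

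The cerebellar arrays give the other side of this difference for the remaining members called. Scn3b was 10.86, 10.43, 10.83 and 10.13 after dexamethasone and 10.48, 9.93, 10.49 and 10.48 after vehicle (0.22 ± 0.26), with B79 the lowest array. Scn7a was 6.00, 5.29, 5.32 and 4.78 after dexamethasone and 5.32, 4.43, 5.51 and 5.34 after vehicle (0.20 ± 0.26), again with B79 lowest. Without B39 and B79 its difference of changes moved from -1.37 to -0.91 (adjusted p = 0.0282). Kcnq5 was 8.32, 8.97, 8.82 and 9.20 after dexamethasone and 9.33, 9.02, 8.48 and 8.48 after vehicle (0.00 ± 0.27). Other probe sets of Kcnq5 gave 0.45 (limma adjusted p = 0.057) and 0.38 (adjusted p = 0.46) in cerebellum and were not called. In all 3 genes the groups overlapped. Cacna1c varied least, at 7.63, 7.48, 7.57 and 7.60 after dexamethasone and 7.59, 7.59, 7.69 and 7.65 after vehicle (-0.06 ± 0.18). Cacna1d was 7.88, 7.89, 8.06 and 7.99 after dexamethasone and 7.67, 7.70, 7.72 and 7.87 after vehicle (0.21 ± 0.10). Its groups were apart by 0.01, and the same held for Kcnh1, at 8.52, 8.13, 8.39 and 8.22 after dexamethasone and 7.97, 8.13, 8.07 and 7.82 after vehicle (0.32 ± 0.18), where the gap was 0.003. Cacna2d1 was 10.68, 10.23, 10.55 and 9.97 after dexamethasone and 10.20, 9.56, 10.04 and 10.19 after vehicle (0.36 ± 0.17). Cacnb4 was 9.71, 9.77, 10.01 and 9.76 after dexamethasone and 9.73, 8.91, 9.15 and 9.49 after vehicle (0.49 ± 0.20). Both overlapped, Cacnb4 only through the vehicle array B78, and B79 was the lowest array for both.

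Cacna1g and Scn2a were called for this difference without a call in either organ. Cacna1g was 5.90, 5.73, 5.83 and 5.98 after dexamethasone and 5.71, 6.22, 6.66 and 6.15 after vehicle in lung (-0.33 ± 0.15), against 0.39 ± 0.15 in cerebellum. The difference of its changes was -0.71 ± 0.21 (adjusted p = 0.0235). Scn2a was 11.54, 10.96, 11.49 and 10.64 after dexamethasone and 11.09, 10.22, 10.72 and 10.83 after vehicle in cerebellum, where B79 was lowest (0.44 ± 0.25). Its difference of changes, -1.06 ± 0.36, had an adjusted p of 0.0439 and was lost under 14 of 26 alternatives, among them the mean of its probe sets (-0.54). Kcna2 had 0.81 ± 0.32 and an adjusted p of 0.0868, and was called without B39 (0.98, adjusted p = 0.0331), without B79 (1.03, adjusted p = 0.0185) and with array weights (1.14, adjusted p = 0.00795). Leaving out 1 array also brought calls for Kcnh2, without B52 (-0.96, adjusted p = 0.0318) or B28 (-0.92, adjusted p = 0.0487), and for Kcnd1 without B12 (-0.64, adjusted p = 0.0363). In cerebellum Kcna2 was 9.61, 8.70, 9.11 and 8.98 after dexamethasone and 8.98, 7.83, 8.28 and 8.83 after vehicle (0.62 ± 0.23, adjusted p = 0.149), with B39 highest and B79 lowest.

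The partners of these channels were read from lists chosen by family. Of 14 measured auxiliary subunits of voltage-gated potassium channels, 5 rose and 0 fell in lung, beside 15.7% and 15.5% of all genes. Values above 0 were found for 13 of the 14, beside 57.0% of all genes, and 5 of 14 (35.7%) had an unadjusted p under 0.05, beside 40.4% of all genes. The largest rise was that of Kcne2, a small subunit that joins Kcnq1 and Kcnh2, at 1.03 ± 0.23 (adjusted p = 0.00238). The others were Kcnip4, Amigo1, Kcnip1 and Kcnab3 (0.85, 0.83, 0.55 and 0.45), of which Kcnip1 and Kcnip4 bind the Kv4 channels. None of the 14 was called in cerebellum, beside 4.8% of all genes, and 4 (28.6%) had an unadjusted p under 0.05, beside 17%.

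Axon initial segments and nodes of Ranvier hold voltage-gated sodium and Kv7 channels in place through ankyrins and adhesion proteins. Of 13 such partners 3 fell and 1 rose in lung, a share called of 30.8% that is close to the 31.2% of all genes. The adhesion protein Nrcam was 8.45, 8.34, 7.99 and 6.19 after dexamethasone and 9.92, 9.87, 10.01 and 10.10 after vehicle, with B46 lowest (-2.23 ± 0.33, adjusted p = 7.65e-05). Ank2 was 4.84, 5.12, 5.33 and 5.10 against 7.19, 7.25, 7.03 and 7.17 (-2.06 ± 0.17, adjusted p = 1.94e-07). Both sets of arrays were wholly apart. Fgf13, which binds the tail of sodium channels, fell by 0.49 on the log2 scale, and Ank3, the ankyrin of the axon initial segment, rose by 0.68 ± 0.10. None of the 13 was called in cerebellum, beside 4.8% of all genes. An unadjusted p under 0.05 was reached there by 2 (15.4%), beside 17% of all genes.

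Further channel genes outside the rule were read in both organs. Of 27 inward rectifier and two-pore genes, 7 rose and 1 fell in lung, and that share, 29.6%, is close to the 31.2% of all genes. In cerebellum 4 rose and 1 fell, 18.5% beside 4.8% of all genes. In lung the inward rectifiers Kcnj15 and Kcnj13 rose by 2.42 ± 0.20 and 1.45 ± 0.19 and the two-pore channel Kcnk1 by 1.86 ± 0.15, while the acid-sensitive two-pore channel Kcnk3 fell (-1.15 ± 0.16). In cerebellum Kcnk10, Kcnj12, Kcnk1 and Kcnj16 rose by 0.78, 0.47, 0.55 and 0.71. Kcnj8, the pore of the vascular ATP-sensitive channel, fell in cerebellum (-0.55 ± 0.14) and rose in lung (0.69 ± 0.14). Of 10 calcium- or sodium-activated potassium channel genes (31.2% of all genes were called in lung) 2 subunits of the large-conductance channel rose in lung, Kcnmb2 (0.57 ± 0.16) and Kcnmb1 (0.25 ± 0.08). Of 8 calcium channel gamma subunits and 9 silent Kv subunits none was called by limma in either organ. Over all genes 31.2% were called in lung and 4.8% in cerebellum. Those with an unadjusted p under 0.05 were 2 and 0 in lung (40.4% of all genes) and 1 and 1 in cerebellum (17%).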

How the data were processed

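Affymetrix mouse arrays were hybridised with biotin-labelled cRNA made from total RNA, per the labels' protocols. The authors deposited log2 values, and the submitters' processing notes name RMA as the tool, without version or settings. Of 45101 probe sets, 34945 carried 1 gene symbol in the platform annotation, updated through RefSeq. These name 18193 genes, each read from its probe set with the highest mean, with no filter on dim genes.

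Limma 3.58.1 (R 4.3.3) was fitted to all genes as a model of 4 group means, with eBayes moderation of the spread and 12 residual degrees of freedom. P-values were adjusted by Benjamini-Hochberg over all 18193 genes, and an adjusted p under 0.05 was a call. Errors beside differences are moderated standard errors. The fit was tested on simulated data. Arrays give no depth, and 4 arrays a group limit the precision.

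The members, the gene lists and the tests were chosen with earlier results of these data known. Members called in a dexamethasone comparison or in the difference between organs are given with their value in each array, and for the tissue comparison the largest called difference each way in each family. Companion lists name up to 4 called members by smallest adjusted p, with further called ones named after their values were seen where a count was 5 or fewer.

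Settings tried in turn were averaging a gene's probe sets, fitting every probe set, dropping dim genes (those not above log2 6 in at least 4 arrays), repeating quantile or cyclic loess normalization, fitting 1 comparison's arrays alone, robust estimation with a variance trend, weighting arrays, adjusting for Xist because sex is not labelled, and dropping each array. Adjusting for Slc6a5 and dropping B39 and B79 together were chosen after seeing the data. The labels give a single hybridization date, so no batch was tested. Within each organ the array numbers of dexamethasone and vehicle lie in separate ranges, so any order they record cannot be told apart from treatment.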

Additional observations from a re-analysis of the deposited data

Results flagged for a closer look

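Of 204 sets of 4 arrays, a member in a group, 10 had a single array farther from the others than the critical value of Dixon's outlier test allows, and chance flags about 1 in 20. In vehicle cerebellum B79 was low for Kcnc2 (4.788, the others 6.994 to 7.4), Scn1a (7.385, the others 8.018 to 8.107) and Scn3b (9.93, the others 10.477 to 10.49). In the same group B81 was high for Cacna1g (8.705, the others 8.391 to 8.416) and B80 was high for Scn9a (4.842, the others 4.636 to 4.653). In dexamethasone cerebellum B39 was high for Kcnc1 (9.6, the others 8.869 to 8.9) and B49 was high for Cacna1s (4.615, the others 4.255 to 4.293). In dexamethasone lung B46 was low for Scn3b (7.901, the others 9.275 to 9.285), Cacna1h (4.658, the others 5.246 to 5.337) and Cacna2d4 (4.871, the others 5.148 to 5.177). Without B46 the lung change of Scn3b was -1.94 (limma adjusted p = 4.37e-07).

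For 12 members the change after dexamethasone differed between the organs by the limma test of the difference itself, lung change minus cerebellar change. Scn3b had -2.5035, Kcnq5 -1.6797, Cacna2d3 -1.606, Scn7a -1.3662, Cacnb2 -1.3655 and Kcnh1 -1.1765. Cacnb4 had -1.1235, Cacna1c -1.066, Scn2a -1.0648, Cacna2d1 -0.9767, Cacna1d -0.7158 and Cacna1g -0.7108. Adjusted p-values ran from 8.11e-06 (Cacna2d3) to 0.0439 (Scn2a).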

How the results depend on the processing

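No paired analysis was possible because the groups compared share no replicate number. Of the 66 called differences of members over the 4 comparisons, 55 kept their call in every alternative run, 11 lost it in at least 1, and 1 turned its direction: Kcnd3 in lung, which became 0.11 (adjusted p = 0.321) with the mean of its probe sets. In lung 10 of 14 calls were kept in every alternative, with Kcnh2, Cacna1b, Cacnb4 and Kcnd3 as the exceptions, and the count of called members stayed within 12 to 16. In cerebellum the count ran from 0 to 2 when arrays were left out in turn, with 0 without B79 and 2 without B52, where Kcna5 was gained, and it was 0 without B39 and B79 together (the cause was not tested). For the difference between organs 11 of 12 calls were kept in every alternative, with Scn2a as the exception. Between tissues 34 of 39 were kept, with Cacna2d1, Kcna7, Kcnh1, Scn11a and Scn4b as the exceptions. Kcnh8 is counted as kept, although the filter on dim genes dropped it and so did not test its call. A renormalization moved the median of all genes by at most 0.04. Arrays give no depth: signals near the floor, as for Cacna1b and Kcnd3 in lung, limit what a change can show.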
